A study of Mus musculus with 17 samples.

Results

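The genes described here encode the pore-forming and accessory subunits of potassium channels, measured by poly(A) RNA-seq in mouse hearts. Members were the protein-coding genes whose symbol begins with *Kcn* and that reached at least 10 counts in at least 8 of the 17 libraries, a rule on read counts over both groups that did not use the difference between them. A gene near this limit could still meet it mainly through the group where it was higher. The rule found 57 of the 94 protein-coding *Kcn* genes in a table of 56748 genes. Hearts of 9 hMut mice were compared with hearts of 8 control (Ctrl) mice, all 12 to 16 months old and untreated, with 1 library per mouse. The hMut mice are *Polg* iMut/iMut; +/Ckmm-cre: both *Polg* alleles carry a conditional knock-in, and Cre removes a floxed wild-type cassette so that a proofreading-deficient mtDNA polymerase is made. Cre is driven by the muscle creatine kinase promoter, which is active in skeletal muscle as well as in cardiomyocytes, so the model is not limited to the heart. The genotype of the Ctrl mice beyond "control" and the sex of each mouse are not given in the sources used here.

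Potassium channels open a selective path for K+ out of the cell. In ventricular myocytes the voltage-gated (Kv) channels repolarize the action potential, the inward rectifiers of the Kir2 group hold the resting potential, ATP-sensitive channels (KATP) couple membrane excitability to the energy state, and two-pore-domain (K2P) channels carry background current. Accessory beta subunits such as the KChIP, KCNE and Kv-beta proteins set the surface expression and gating of the pores they bind.

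All of these pores share a short selectivity filter. For 2 Kir2 pores and the 2 Kir6 pores of the KATP channel, which show how the filter differs between these groups, 30 bases of coding sequence around the filter are shown from GRCm39, 5′ to 3′ on the coding strand, with the 3 filter codons in capitals.
*Kcnj2*, Kir2.1, chr11:110963027-110963056, plus strand: cagacaaccattGGCTATGGTttcaggtgt
*Kcnj14*, Kir2.4, chr7:45469048-45469077, minus strand: cagacgtccataGGCTATGGTgtgcgcagc
*Kcnj8*, Kir6.1, chr6:142512165-142512194, minus strand: caagtgaccattGGGTTTGGAgggagaatg
*Kcnj11*, Kir6.2, chr7:45748911-45748940, minus strand: caggtgaccattGGTTTCGGCgggcgcatg
The capitals encode Gly-Tyr-Gly in both Kir2 genes and Gly-Phe-Gly in both Kir6 genes. Over these 30 bases *Kcnj14* differed from *Kcnj2* at 9 positions, *Kcnj8* at 14 and *Kcnj11* at 15. Over the whole coding sequence *Kcnj2* and *Kcnj4* were 59.7% identical, with a longest shared run of 14 bases. *Kcnj12* and *Kcnj4* were 67.2% identical, with a longest shared run of 32 bases, which is the longest among the 6 Kir2 pairs.

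Total counts lay between 34425783 and 46486964 in Ctrl and between 32915159 and 40175122 in hMut. *Polg* rose from 34.7 ± 7.31 CPM (read counts scaled to the TMM-normalized library total; SD, n = 8) to 57.9 ± 6.08 (SD, n = 9), a log2 fold change of 0.74 (SE 0.10, adjusted p = 0.000448 by the quasi-likelihood test of edgeR, adjusted by Benjamini-Hochberg over all genes), but counts per gene do not tell the mutant allele from the wild-type one. Of all 16195 genes tested, 749 were called at an adjusted p below 0.05 (4.62%), with 564 higher in hMut (3.48%) and 185 lower (1.14%). With libraries scaled on cardiomyocyte markers instead of TMM the split was 7065 higher and 84 lower, because that scaling moved the median of all genes from 0.00 to 0.27 on the log2 scale. The hearts of hMut replicates 6 and 9 stood apart. Their summed cardiomyocyte markers were 46203 and 43920 CPM, against 57735 to 70686 in the other hMut hearts and 58754 to 71868 in Ctrl. Their summed immune markers were 1125 and 557 CPM, against 257 to 343 and 203 to 318. Of the 9 atrial markers, *Sln* and *Myl7* had at most 11 and 19 counts in any library, while the list summed to 64.2 to 87.7 CPM in Ctrl and 70.9 to 95.6 in hMut, and *Bmp10* rose from a mean of 0.216 to 10.6 CPM, by 5.58 on the log2 scale, with every hMut heart above every Ctrl heart.

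Of the 57 members, 56 entered the test across all genes, and 4 passed it (7.14%, against 4.62% of all genes). *Kcnj4*, the pore Kir2.3, rose in hMut. *Kcnj2*, the main pore of the inward rectifier current, *Kcnn2*, a small-conductance calcium-activated channel, and *Kcnq1*, the pore of the slow delayed rectifier, fell. That is 1.79% of members called higher, against 3.48% of all genes, and 5.36% called lower, against 1.14%. At an unadjusted p below 0.05, 8 members were lower and 4 higher, where 11.3% of all genes were lower and 14.5% higher. The median log2 fold change of the members was −0.12 and 33 of 56 lay below 0, where 49.5% of all genes did. With libraries scaled on cardiomyocyte markers 17 of 56 lay below 0, but that scaling moved the median of all genes from 0.00 to 0.27. The median of the members was then 0.14, a difference of −0.13 from that of all genes. With the level of the atrial marker list as a covariate none of the 4 passed, and the log2 fold change was 0.67 for *Kcnj4*, −0.23 for *Kcnn2*, −0.10 for *Kcnj2* and −0.14 for *Kcnq1*. That list holds *Bmp10*, and with *Bmp10* left out, a choice made after seeing the data, *Kcnj4* alone did (1.77, adjusted p = 0.0231 by edgeR), with *Kcnn2*, *Kcnj2* and *Kcnq1* at −0.56, −0.47 and −0.32 (adjusted p = 0.0670, 0.0838 and 0.0935 by edgeR). With no filter on low counts *Kcnj2* and *Kcnq1* were at −0.49 and −0.32 (adjusted p = 0.0517 and 0.0854 by edgeR). In bulk tissue, fewer cells of a type and less RNA per cell cannot be told apart.

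The classes differed in how many members lay below 0, a description with no test between them. Of 22 Kv members, 17 had a log2 fold change below 0 (median −0.21), as had 6 of 7 calcium- or sodium-activated members (median −0.15), 4 of 8 Kir members (median −0.02) and 2 of 6 K2P members (median 0.13). Of the 11 beta subunits, 8 lay above 0 (median 0.22), among them *Kcne3*, which met the rule for members mainly through hMut libraries. With libraries scaled on cardiomyocyte markers the members below 0 were 9 of 22 for Kv (median 0.03), 2 of 7 for calcium- or sodium-activated channels (median 0.13), 4 of 8 for Kir (median 0.24), 0 of 6 for K2P (median 0.42) and 2 of 11 for beta subunits (median 0.47). The medians of the first 3 of these classes turned positive but stayed below that of all genes, which the scaling moved to 0.27. With TMM scaling 1 Kv member, 1 calcium-activated member and 1 Kir member fell, 1 Kir member rose, and none of the KATP, K2P and beta members passed. With cardiomyocyte scaling, which puts the median of all genes at 0.27, edgeR called 13 members higher, which were the Kir members *Kcnj4* (2.06), *Kcnj15* (0.85) and *Kcnj14* (0.64), the KATP pore *Kcnj8* (0.42), the Kv members *Kcnh1* (0.84), *Kcna5* (0.36) and *Kcnd3* (0.30), the K2P members *Kcnk13* (0.85), *Kcnk6* (0.58) and *Kcnk2* (0.35) and the beta subunits *Kcne3* (1.03), *Kcne4* (0.72) and *Kcnmb1* (0.56). It called 3 lower, *Kcnn2* (−0.33), *Kcnj2* (−0.27) and *Kcnj5* (−0.23). Of all 16195 genes, that scaling called 7065 higher and 84 lower, so that a higher call was frequent among genes in general and a lower call rare. The adjusted p of the 16 calls among members lay between 0.00337 and 0.0465. Among the 16 members with a mean of at least 10 CPM, 13 lay below 0, against 50.4% of all genes at that level. Among the 40 less abundant members, 20 did, against 48.5%.

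**Figure D1:**
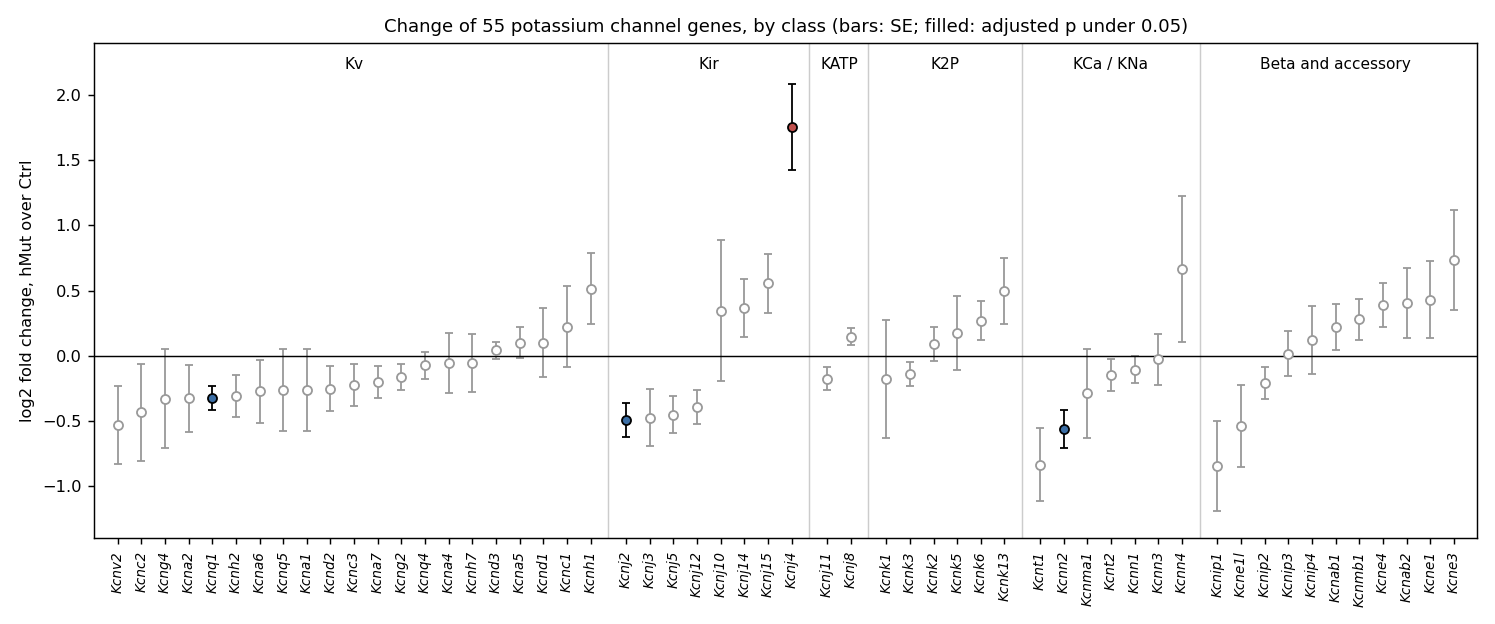
Log2 fold change of hMut over Ctrl for all but 1 of the 56 tested members, grouped by channel class, with bars of 1 SE and filled points for the 4 that passed an adjusted p of 0.05. Kv pores lay mostly under 0 and beta subunits mostly over it (8 of 11), and *Kcnj4* at 1.75 was the member farthest from 0. With libraries scaled on cardiomyocyte markers 17 of 56 members lay below 0, with a median of 0.14 for the members and 0.27 for all genes.

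Levels of different genes were compared per kilobase of exon. Summed over all members the level was 386 ± 15.7 CPM per kb in Ctrl (SD, n = 8, range 353 to 400) and 336 ± 55.9 in hMut (SD, n = 9, range 235 to 411). The hMut hearts spread to both sides of the Ctrl range. By class the summed level per kb went from 102 to 89.1 for Kv, from 74.9 to 56.1 for Kir, from 67.0 to 62.7 for KATP, from 86.8 to 79.4 for K2P, from 6.29 to 5.50 for calcium- and sodium-activated channels, and from 48.9 to 43.5 for beta subunits, values given without a test. The member with the highest level per kb was *Kcnk3*, the background channel TASK-1, at 83.0 in Ctrl. It was followed by *Kcnj11* at 51.9, by *Kcng2*, a silent Kv modifier subunit, at 45.4, and by *Kcnip2*, the KChIP2 accessory subunit of Kv4 channels, at 45.1, the last 2 of which did not differ beyond their SDs of 4.56 and 6.96.

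The inward rectifiers held the largest difference in the family. *Kcnj4* lay between 0.189 and 0.727 CPM in the Ctrl hearts (median 0.409) and between 0.743 and 2.66 in the hMut hearts (median 1.10). Every hMut heart was above every Ctrl heart, with hMut replicates 9, 7 and 5 highest at 2.66, 2.64 and 2.44 CPM. No other member and 0.543% of all genes separated the groups in this way. The log2 fold change was 1.75 (SE 0.33, 95% interval 1.05 to 2.45, adjusted p = 0.00489 by edgeR), a 3.37-fold rise. The level was low all the same, with 7 to 23 counts per Ctrl library and 27 to 118 per hMut library. *Kcnj4* passed in each of the 17 fits that left out 1 library, with adjusted p between 0.00194 and 0.0137. It had no exon bases in common with another annotated gene.

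*Kcnj2* lay between 62.6 and 83.1 CPM in Ctrl (median 73.7) and between 32.1 and 70.6 in hMut (median 52.2). In 7 of 9 hMut hearts it was below every Ctrl heart, and hMut replicates 1 and 2, at 69.7 and 70.6 CPM, lay inside the Ctrl range. It fell by 0.49 on the log2 scale (SE 0.13, 95% interval −0.77 to −0.22, adjusted p = 0.0371 by edgeR), which is 29.0% lower. The call was close to the threshold. It was lost, with adjusted p up to 0.0746, in 11 of 17 fits without 1 library (Ctrl replicates 2, 3, 5, 6, 7 and 8 and hMut replicates 3, 5, 6, 7 and 8). Over all 17 fits the log2 fold change stayed between −0.56 and −0.43. Without hMut replicates 6 and 9 together the log2 fold change was −0.36 (adjusted p = 0.0389 by edgeR).

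*Kcnj12*, the other abundant Kir2 pore, lay between 25.6 and 33.6 CPM in Ctrl (median 29.1) and between 13.3 and 28.4 in hMut (median 23.3). It was below every Ctrl heart in 6 of 9 hMut hearts, but its log2 fold change of −0.39 (SE 0.13) did not pass in edgeR (adjusted p = 0.0819) except in the fit without hMut replicate 2 (adjusted p = 0.0353). It passed as lower by DESeq2 (adjusted p = 0.0417) and by limma-voom (adjusted p = 0.0166). These 2 tools called 1533 and 2081 of all genes, against 749 by edgeR. *Kcnj14*, Kir2.4, went from a median of 3.55 CPM (1.64 to 6.1) in Ctrl to 4.90 (2.32 to 6.70) in hMut, with overlapping groups and a log2 fold change of 0.37 (SE 0.22, adjusted p = 0.291 by edgeR). Summed per kb, the 4 Kir2 pores stood at 25.7 ± 0.939 CPM per kb in Ctrl (SD, n = 8, range 24.1 to 27.0) and at 20.2 ± 3.96 in hMut (SD, n = 9, range 13.5 to 25.8). Within this sum, *Kcnj4* made up 0.804% ± 0.304 in Ctrl and 3.80% ± 2.61 in hMut, up to 9.14% in hMut replicate 9, *Kcnj14* made up 5.32% ± 1.84 and 9.13% ± 2.97, and *Kcnj2* made up 52.9% ± 4.45 and 47.5% ± 4.06. These shares were chosen after the values were seen and carry no test. By sex-linked counts 3 Ctrl and 2 hMut hearts were female, and *Kcnj14* differed with sex, as given below. Its share was 2.51% to 4.96% in female and 4.96% to 8.52% in male Ctrl hearts. In hMut it was 3.87% and 5.30% in female hearts and 8.43% to 12.5% in male hearts. The part of sex in these shares was not tested. In mean level per kb *Kcnj4* went from 0.208 to 0.699, *Kcnj2* from 13.6 to 9.65 and *Kcnj12* from 10.5 to 8.03, so that *Kcnj4* remained far below both.

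The G-protein-gated rectifiers *Kcnj3* and *Kcnj5*, which form the acetylcholine-activated channel, were the most abundant of the Kir class per kb. *Kcnj5* lay between 114 and 142 CPM in Ctrl (median 134) and between 53.3 and 139 in hMut (median 97.0). It was below every Ctrl heart in 7 of 9 hMut hearts, and its log2 fold change of −0.45 (SE 0.14) missed the threshold in edgeR (adjusted p = 0.0687), passing without hMut replicate 1 (adjusted p = 0.0493), without hMut replicate 2 (0.0168) or without hMut replicates 6 and 9 together (0.0492). In the other 15 of 17 fits without 1 library *Kcnj5* did not pass (adjusted p up to 0.113 by edgeR). It passed as lower with cardiomyocyte scaling (−0.23, adjusted p = 0.0355 by edgeR), by DESeq2 (adjusted p = 0.0265) and by limma-voom (adjusted p = 0.00452). *Kcnj3* lay between 86.8 and 122 CPM in Ctrl and between 27.8 and 122 in hMut, with 7 hMut hearts below and 1 above every Ctrl heart (log2 fold change −0.48, SE 0.22, adjusted p = 0.178 by edgeR, but adjusted p = 0.0342 by limma-voom). Of the 2 remaining Kir members, *Kcnj15* had a log2 fold change of 0.56 (SE 0.23) and *Kcnj10* of 0.35 (SE 0.54). Neither passed in edgeR with all libraries and TMM scaling (adjusted p = 0.141 and 0.704), while *Kcnj15* passed with cardiomyocyte scaling (0.85, adjusted p = 0.0175), by limma-voom (0.68, adjusted p = 0.0411) and in edgeR without Ctrl replicate 4 (0.76, adjusted p = 0.0378).

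**Figure D2:**
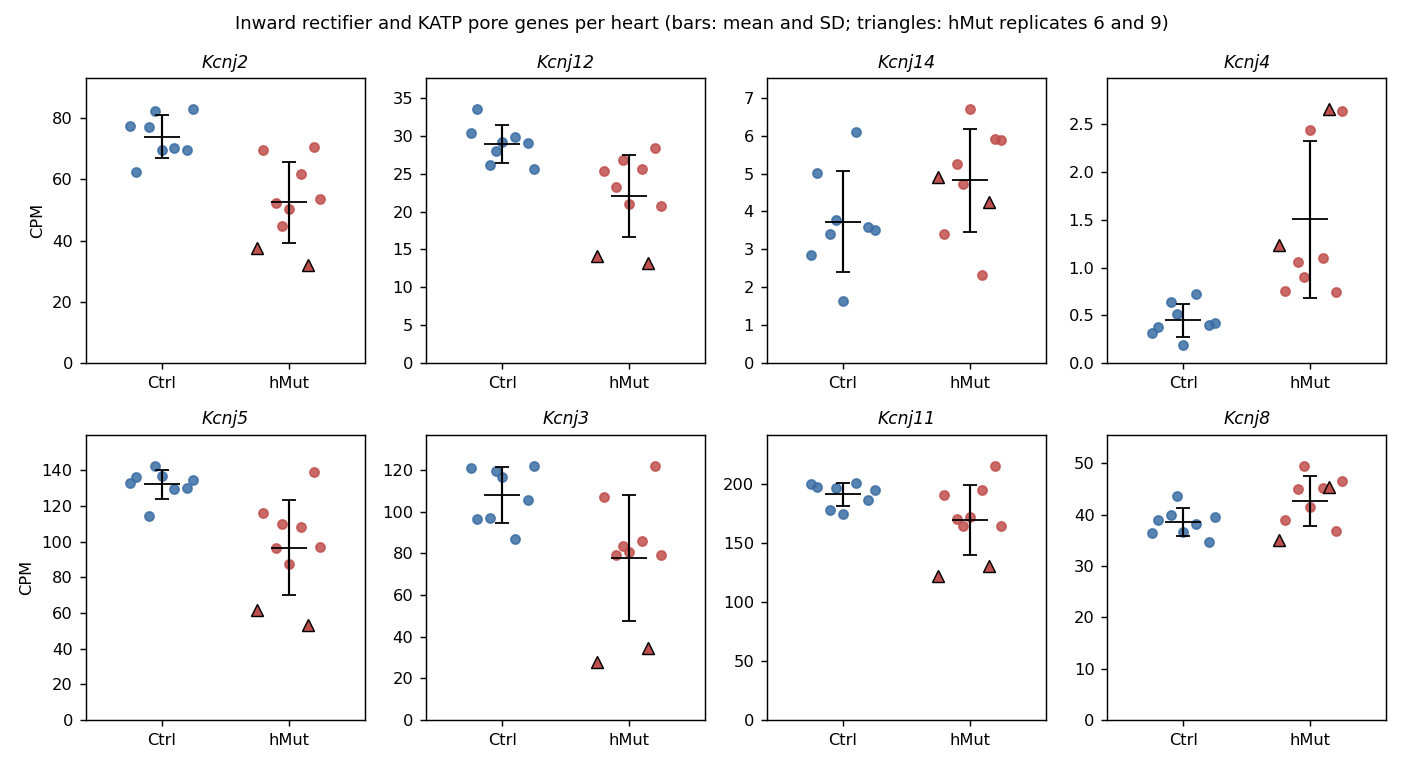
CPM per heart of inward rectifier and KATP members in Ctrl and hMut hearts, with lines at the group means, bars of 1 SD, triangles for hMut replicates 6 and 9 and a linear axis from 0. *Kcnj4* was higher in all 9 hMut hearts than in any Ctrl heart, while *Kcnj2* was lower in 7 of 9.

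The cardiac KATP channel joins Kir6 pores, *Kcnj11* (Kir6.2) or *Kcnj8* (Kir6.1), to sulfonylurea receptors encoded by *Abcc8* (SUR1) and *Abcc9* (SUR2). *Kcnj11* lay between 175 and 200.3 CPM in Ctrl (median 195) and between 122 and 215 in hMut (median 170). It was below every Ctrl heart in 6 hMut hearts and above in 1, and did not pass (log2 fold change −0.17, SE 0.09, adjusted p = 0.22 by edgeR), with a sign that turned to 0.07 when libraries were scaled on cardiomyocyte markers, which put the median of all genes at 0.27. *Kcnj8*, which in the heart is also expressed by vascular smooth muscle and pericytes, lay between 34.7 and 43.6 CPM in Ctrl (median 38.6) and between 35.1 and 49.5 in hMut (median 45.1), with 5 hMut hearts above every Ctrl heart (log2 fold change 0.15, SE 0.07, adjusted p = 0.172 by edgeR). It passed as higher with cardiomyocyte scaling (0.42, adjusted p = 0.0121 by edgeR) and by limma-voom (0.19, adjusted p = 0.0298). *Abcc9* lay between 353 and 429 CPM in Ctrl (median 399) and between 225 and 403 in hMut (median 337). It was below every Ctrl heart in 6 hMut hearts (log2 fold change −0.27, SE 0.09, adjusted p = 0.0838 by edgeR). It passed as lower without hMut replicate 2 (−0.32, adjusted p = 0.0310 by edgeR), by DESeq2 (adjusted p = 0.0473) and by limma-voom (adjusted p = 0.0146). In the other 16 of 17 fits without 1 library it did not pass (adjusted p up to 0.146 by edgeR). *Abcc8* had medians of 31.3 and 28.6 CPM (log2 fold change −0.06, adjusted p = 0.687 by edgeR, but 0.21 with libraries scaled on cardiomyocyte markers).

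Ratios within a heart do not depend on how libraries are scaled, and 7 ratios of subunits that share a channel or a current were tested by a two-sided exact permutation test over 24310 splits of the hearts. None of the 7 passed after adjustment. The log2 ratio of *Kcnj8* to *Kcnj11*, in levels per kb, was −1.78 ± 0.11 in Ctrl (SD, n = 8) and −1.44 ± 0.31 in hMut (SD, n = 9), a difference of 0.33 (exact permutation p = 0.0130, adjusted p = 0.0729). It was above every Ctrl heart in 7 hMut hearts and below in 1. The summed smooth muscle and pericyte markers were 1202 to 1488 CPM in Ctrl and 1030 to 1568 in hMut, and their part in this ratio was not tested. *Abcc9* against *Kcnj11* differed by −0.10 (exact permutation p = 0.0341, adjusted p = 0.0796), with 5 hMut hearts below every Ctrl heart. The ratio of *Kcnd2* to *Kcnd3* is given with the Kv channels below. The ratios of *Kcnj12* to *Kcnj2*, of *Kcnj5* to *Kcnj3*, of *Kcnip2* to *Kcnd2* and of *Kcna4* to *Kcnd2* differed by 0.10, 0.09, 0.09 and 0.23, with exact permutation p adjusted to 0.593 or 0.594.

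**Figure D3:**
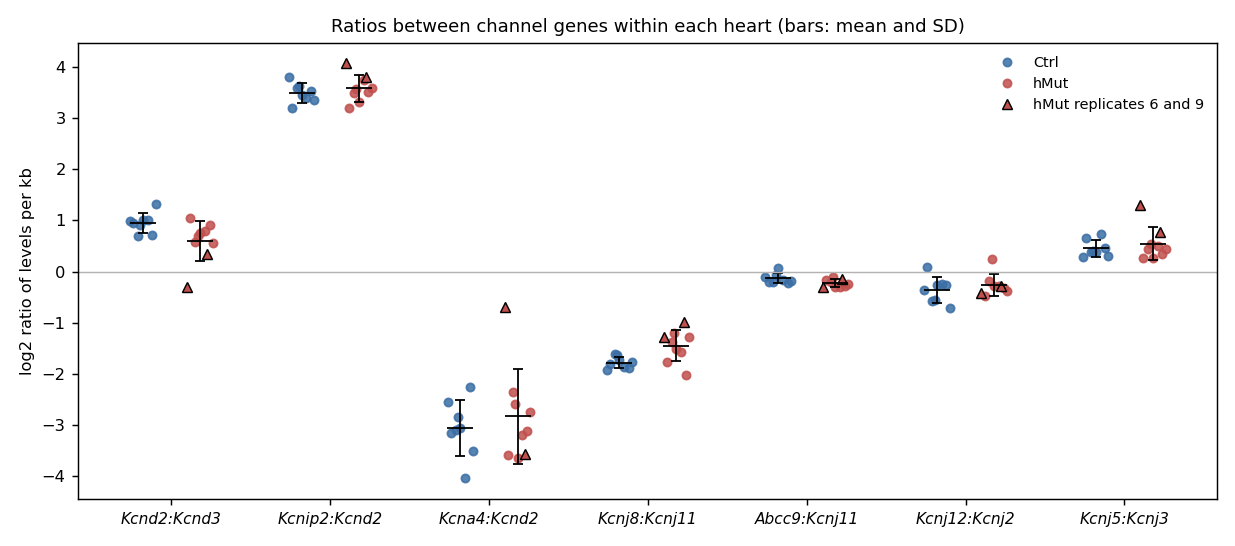
Log2 ratio of 7 subunit pairs in each heart, from levels per kb, for Ctrl and hMut, with lines at the group means, bars of 1 SD and triangles for hMut replicates 6 and 9. *Kcnj8* to *Kcnj11* was above the Ctrl range in 7 hMut hearts and *Kcnd2* to *Kcnd3* below it in 5.

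Among the Kv pores *Kcnq1*, Kv7.1, was the member that passed in edgeR with TMM scaling. With cardiomyocyte scaling, which put the median of all genes at 0.27, it did not. There *Kcnd3*, *Kcna5* and *Kcnh1* passed as higher, among 7065 of all 16195 genes. *Kcnq1* lay between 38.5 and 53.3 CPM in Ctrl (median 47.4) and between 27.5 and 44.8 in hMut (median 36.2). In 6 of 9 hMut hearts it was below every Ctrl heart. It fell by 0.32 on the log2 scale (SE 0.09, 95% interval −0.52 to −0.13, adjusted p = 0.0493 by edgeR), which is 20% lower. This was at the threshold: the call was kept in 6 of 17 fits without 1 library (Ctrl replicates 1, 3 and 4 and hMut replicates 1, 2 and 4) and lost in the other 11, with adjusted p up to 0.10. Without hMut replicates 6 and 9 the log2 fold change was −0.25 (adjusted p = 0.104), and with libraries scaled on cardiomyocyte markers it was −0.07 (adjusted p = 0.404). Of its 5130 exon bases, 834 (16.3%) also belong to the antisense *Kcnq1ot1*, which had 53 to 90 counts per library and a log2 fold change of −0.04. Whether reads were counted by strand is not given in the sources used here. *Kcne1*, the subunit that slows this channel, was low, at 0.654 to 2.04 CPM in Ctrl and 0.609 to 2.57 in hMut (log2 fold change 0.43, SE 0.30, adjusted p = 0.356 by edgeR).

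*Kcnh2*, the pore of the rapid delayed rectifier, lay between 56.1 and 113 CPM in Ctrl (median 90.6) and between 40.2 and 93.7 in hMut (median 68.2). The groups overlapped, with 2 hMut hearts below every Ctrl heart (log2 fold change −0.31, SE 0.16, adjusted p = 0.221 by edgeR). *Kcng2*, the silent modifier with the highest level per kb of the Kv class, had medians of 131 and 121 CPM (log2 fold change −0.16, SE 0.10, adjusted p = 0.29 by edgeR). Its value turned positive, to 0.076, with libraries scaled on cardiomyocyte markers, where the median of all genes was 0.27. *Kcna5*, Kv1.5, had medians of 17.8 and 20.5 CPM (log2 fold change 0.10, SE 0.12, adjusted p = 0.607 by edgeR). Over the Kv class the log2 fold changes ran from −0.53 for *Kcnv2* (SE 0.30, adjusted p = 0.258 by edgeR), a silent subunit that lay between 7.83 and 15 CPM in Ctrl and between 1.33 and 12.8 in hMut, to 0.51 for *Kcnh1* (SE 0.27, adjusted p = 0.234 by edgeR).

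The transient outward current uses the Kv4 pores *Kcnd2* (Kv4.2) and *Kcnd3* (Kv4.3) with *Kcnip2*, and a slow component uses *Kcna4* (Kv1.4). *Kcnd2* lay between 16.2 and 25.7 CPM in Ctrl (median 21) and between 6.70 and 25.6 in hMut (median 17.4), and *Kcnd3* between 18.4 and 20.3 (median 19.9) and between 15.4 and 23.1 (median 20.6). For *Kcnd3* the Ctrl hearts were close together, and 6 hMut hearts were above and 1 below all of them. Neither gene passed in edgeR with TMM scaling, with log2 fold changes of −0.25 (SE 0.17, adjusted p = 0.348) and 0.04 (SE 0.06, adjusted p = 0.692), while with cardiomyocyte scaling *Kcnd3* passed as higher (0.30, adjusted p = 0.0154). That scaling put the median of all genes at 0.27. The log2 ratio of *Kcnd2* to *Kcnd3* in levels per kb was 0.95 ± 0.19 in Ctrl (SD, n = 8) and 0.60 ± 0.39 in hMut (SD, n = 9), a difference of −0.35 (exact permutation p = 0.0208, adjusted p = 0.0729), with 5 hMut hearts below every Ctrl heart. It passed after adjustment without hMut replicate 1 (adjusted exact permutation p = 0.0267) or hMut replicate 2 (0.0441), as did the ratio of *Kcnj8* to *Kcnj11* (0.0267 and 0.00653). In the other 15 of 17 tests without 1 library neither ratio passed, with adjusted exact permutation p up to 0.136 and 0.129. *Kcnip2* had medians of 163 and 141 CPM (log2 fold change −0.21, SE 0.12, adjusted p = 0.272 by edgeR, but 0.03 with libraries scaled on cardiomyocyte markers) and *Kcna4* of 2.25 and 2.26 (−0.05, SE 0.23, adjusted p = 0.90 by edgeR). *Dpp6*, another Kv4 partner outside the family, had a log2 fold change of 0.05 (adjusted p = 0.94 by edgeR).

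**Figure D4:**
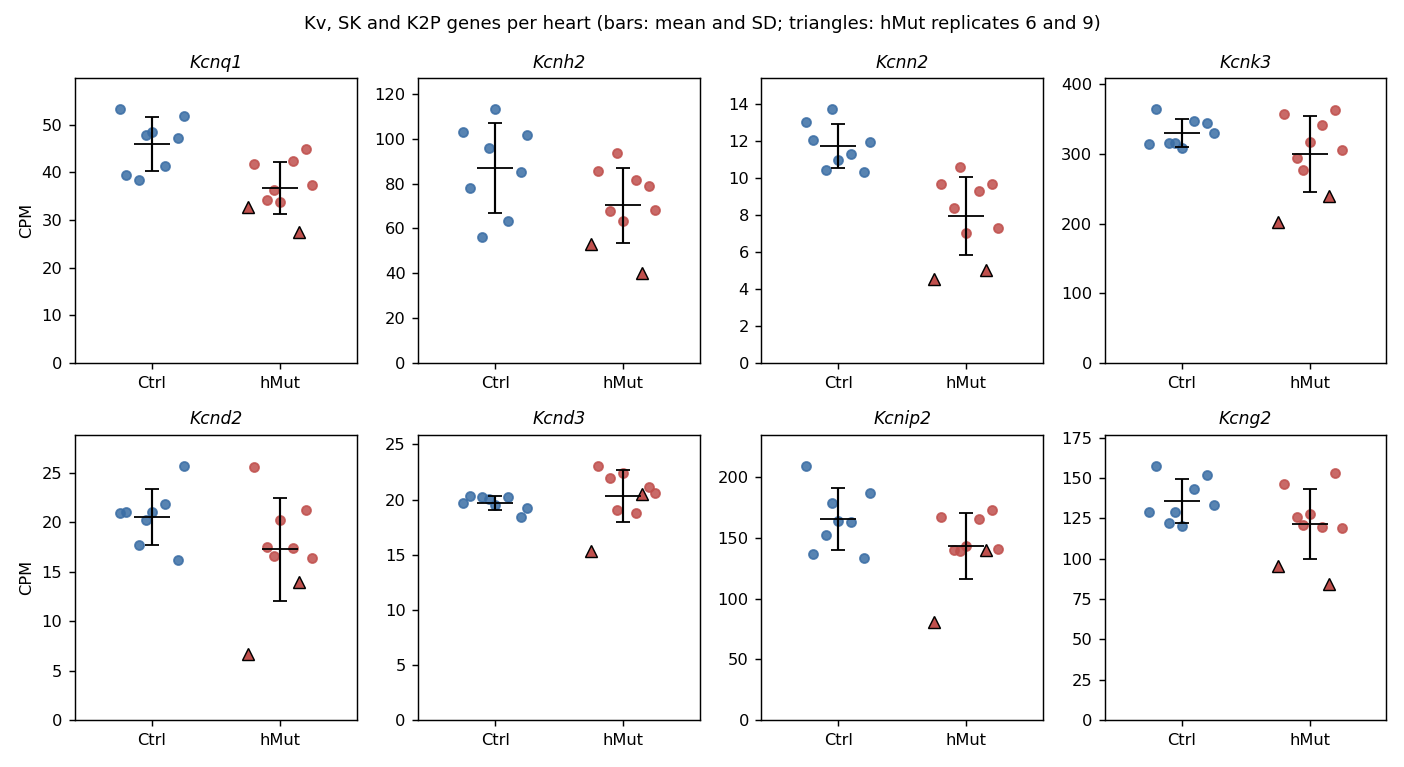
CPM per heart of Kv, calcium-activated, K2P and beta members in Ctrl and hMut hearts, with lines at the group means, bars of 1 SD, triangles for hMut replicates 6 and 9 and a linear axis from 0. *Kcnn2* was below every Ctrl heart in 8 hMut hearts and *Kcnq1* in 6, while *Kcnh2* and *Kcnip2* overlapped widely.

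*Kcnn2*, SK2, carries calcium-activated current in myocytes and lay between 10.3 and 13.7 CPM in Ctrl (median 11.6) and between 4.52 and 10.6 in hMut (median 8.39). It was below every Ctrl heart in 8 of 9 hMut hearts, the exception being hMut replicate 8 at 10.6 CPM. No member, and 0.0617% of all genes, had every hMut heart below every Ctrl heart. *Kcnn2* fell by 0.56 on the log2 scale (SE 0.14, 95% interval −0.87 to −0.26, adjusted p = 0.034 by edgeR), which is 32.3% lower. The call was lost, with adjusted p up to 0.0700, in 8 of 17 fits without 1 library (Ctrl replicates 1, 5, 6, 7 and 8 and hMut replicates 5, 7 and 9). Over all 17 fits the log2 fold change ran from −0.62 to −0.49. The call was kept without hMut replicates 6 and 9 together (−0.41, adjusted p = 0.0195 by edgeR). Antisense genes share 11.8% and 3.56% of the exon bases of *Kcnn2*.

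The other calcium- or sodium-activated members did not pass in edgeR with all libraries. *Kcnn1*, SK1, had the highest level per kb of this class, at 3.73 in Ctrl and 3.46 in hMut, and overlapped between the groups (log2 fold change −0.11, SE 0.10, adjusted p = 0.522 by edgeR). *Kcnt1*, a sodium-activated channel, lay between 0.506 and 1.04 CPM in Ctrl and between 0.190 and 0.823 in hMut, with 6 hMut hearts below every Ctrl heart (log2 fold change −0.83, SE 0.28, adjusted p = 0.0836 by edgeR). It passed as lower without hMut replicate 2 or 8 (adjusted p = 0.0314 and 0.0375 by edgeR), by DESeq2 (adjusted p = 0.0417) and by limma-voom (adjusted p = 0.00877). *Kcnma1*, the BK pore typical of smooth muscle, was near the lower limit of detection at 0.0188 CPM per kb in Ctrl (log2 fold change −0.29, SE 0.34, adjusted p = 0.608 by edgeR).

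The K2P channels showed no call with TMM scaling. With cardiomyocyte scaling 3 of the 6 tested passed as higher, as did 7065 of all 16195 genes, whose median was then 0.27. *Kcnk3* lay between 309 and 364 CPM in Ctrl (median 323) and between 202 and 363 in hMut (median 306). It was below every Ctrl heart in 5 hMut hearts and overlapped in the other 4 (log2 fold change −0.14, SE 0.09, adjusted p = 0.349 by edgeR), and its sign turned, to 0.10, with libraries scaled on cardiomyocyte markers. *Kcnk2*, the stretch-sensitive channel TREK-1, had a log2 fold change of 0.09 (SE 0.13, adjusted p = 0.667 by edgeR) and *Kcnk1*, TWIK-1, of −0.18 (SE 0.45, adjusted p = 0.826 by edgeR), the latter with a wide spread in both groups. *Kcnk4*, TRAAK, had 5 to 21 counts per library and did not enter the test. Its level went from 0.0841 to 0.0496 CPM per kb, with 7 of 9 hMut hearts below every Ctrl heart. It reached 10 counts in 7 Ctrl and 2 hMut libraries, so it was a member mainly through the group where it was higher.

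Among the beta subunits the range ran from −0.84 for *Kcnip1* (SE 0.34, adjusted p = 0.14 by edgeR) to 0.73 for *Kcne3* (SE 0.38, adjusted p = 0.228 by edgeR), a subunit that was just inside the rule for members. *Kcne3* reached 10 counts in 2 of 8 Ctrl and 6 of 9 hMut libraries, so it was a member mainly through the group where it was higher. *Kcne4*, an inhibitory KCNE subunit, lay between 2.65 and 3.56 CPM in Ctrl (median 2.97) and between 2.53 and 6.97 in hMut (median 3.81). In 6 hMut hearts it was above and in 1 below every Ctrl heart (log2 fold change 0.39, SE 0.17, adjusted p = 0.16 by edgeR). *Kcnab1*, a Kv-beta subunit, had a log2 fold change of 0.22 (adjusted p = 0.421 by edgeR).

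Not every member was well measured. Of the 57, 45 reached 10 counts in all 17 libraries. Just inside the rule were *Kcne3*, with 8 libraries (2 Ctrl and 6 hMut) and 198 counts in all, and *Kcnk4*, with 9 libraries (7 Ctrl and 2 hMut) and 185 counts. Just outside was *Kcnab3*, with 7 libraries and 177 counts, followed by *Kcns1*, *Kcns3* and *Kcnc4* with 6 libraries each. Of the 37 family genes that were not members, 27 stayed under 10 counts in every library. By the GENCODE vM39 annotation, which may differ from the one used for counting, 29 members share exon bases with a gene on the other strand.

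The hearts of hMut replicates 6 and 9 held many of the lowest values. In these hearts 27 and 23 of the 56 members (48.2% and 41.1%) were below every Ctrl heart, against 28.8% and 26.6% of all genes. In the other hMut hearts 7 to 17 members were (12.5% to 30.4%), against 10.4% to 17.3% of all genes. The summed cardiomyocyte markers given above were lowest, and fibroblast markers highest, at 2063 and 1585 CPM against 902 to 1064 in Ctrl, in the same 2 hearts. Their part in the values of the members was not tested. Without both hearts 38 of 57 members tested lay below 0, with a median of −0.08, against −0.006 for all genes. With all hearts these medians were −0.12 and 0.00, so the members lay closer to all genes without the 2 hearts. The share of all genes below 0 in the fit without them is not given here. The 13 members called higher and 3 called lower after scaling on cardiomyocyte markers are given above by class, with the counts over all genes.

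**Figure D5:**
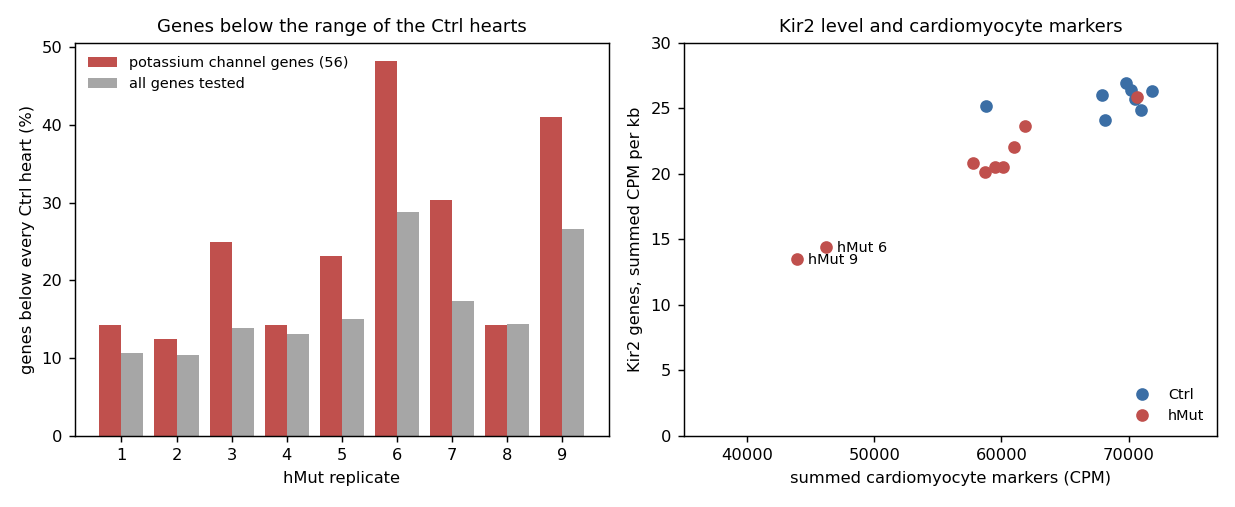
Left, for each hMut replicate, the percent of the 56 members and of all genes whose CPM lay under the whole Ctrl range. Right, summed Kir2 level in CPM per kb against summed cardiomyocyte markers in CPM for the 17 hearts, where hMut replicates 6 and 9, marked, had the 2 lowest marker sums.

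Genes outside the family that act with these channels were read from lists. Of 8 tested channel partners none passed (median −0.07). None of 3 HCN pacemaker channels (median −0.38) and none of 10 regulators (median −0.08) passed. Of the cell type markers, 1 of 6 atrial (median 0.20), 1 of 10 smooth muscle and pericyte (median 0.14), 2 of 8 endothelial (median 0.14) and 1 of 3 skeletal muscle genes (median 0.68) were called higher. The called skeletal muscle gene was *Acta1* (log2 fold change 1.31, adjusted p = 0.0385 by edgeR). At 197 to 363 CPM in Ctrl and 134 to 1386 in hMut it made up nearly all of that list, so the list rests on 1 gene and is no measure of skeletal muscle content. None passed of 14 cardiomyocyte (median −0.19), 3 ventricular (median −0.24), 8 fibroblast (median 0.37), 7 Schwann cell and neuron (median −0.27) and 9 immune genes (median 0.63), and no adipocyte gene was tested.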

How the data were processed

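The authors extracted RNA from heart tissue and selected poly(A) RNA. Their processing notes name fastp for read filtering, HISAT2 (2.2.1) for alignment, GRCm39 as the genome and featureCounts (2.0.6) for counting. The deposited table holds raw counts, which were not normalized. The strand setting and annotation of the counting are not given in the sources used here.

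Genes were tested with edgeR's quasi-likelihood test (edgeR 4.0.16, R 4.3.3) after filterByExpr and TMM, with condition as the only term and Benjamini-Hochberg adjustment over 16195 genes at 0.05. SEs are |log2 fold change| over the root of F. CPM used TMM-scaled totals, and CPM per kb divided by the deposited exon length. Ratios used log2 CPM with a prior count of 2. On simulated counts for this comparison (16195 genes), 129 of 200 genes changed by 0.5 on the log2 scale were called (64.5%) and 175 of 200 changed by 1 (87.5%).

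Named were members that passed, members on a list of cardiac core channels, the member of each class with the highest level per kb, and *Abcc8*, *Abcc9*, *Dpp6* and list genes that passed. Others were named after their values were seen, and some items that the rule names are not reported here. The members and lists were chosen with earlier results of these data known. Sequences were read from GRCm39 with the GENCODE vM39 annotation. Alternatives were other normalizations, filters, tools and covariates, a replicate block and leaving out libraries.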

Additional observations from a re-analysis of the deposited data

Results flagged for a closer look

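Of 66 groups checked, 10 (15.2%) had a heart far from the others of its group, where chance gives about 5%. The hMut replicate 6 heart was lowest of its group, on the log2 CPM scale, for *Kcnd2* at 2.76 (next heart 3.81), *Kcnd3* at 3.95 (4.24), *Kcnip2* at 6.33 (7.12) and *Kcnn1* at 3.43 (3.88). It was also highest for the log2 ratio of *Kcna4* to *Kcnd2* at −0.69 (next −2.36) and of *Kcnj5* to *Kcnj3* at 1.30 (next 0.78). The hMut replicate 8 heart was highest for the log2 ratio of *Kcnj12* to *Kcnj2* at 0.24 (next −0.18). Outside the family, *Dpp6* was lowest in hMut replicate 1 at −2.63 log2 CPM (next −1.24). In Ctrl, *Kcnj5* was lowest in replicate 3 at 6.84 (next 7.02) and *Kcnk1* in replicate 6 at −0.29 (next 1.17).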

How the results depend on the processing

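With all 17 libraries 749 genes were called, with 1 member higher and 3 lower. Leaving out 1 library gave 395 to 1792 genes, 1 to 2 members higher and 0 to 6 lower, with 0 lower without Ctrl replicates 5, 6, 7 or 8 or hMut replicates 5 or 7 and 6 lower without hMut replicate 2. Without Ctrl replicate 4, *Kcnj15* was also called higher (0.76, adjusted p = 0.0378 by edgeR). Without a filter 463 genes and 1 lower member were called, with DESeq2 1533 and 6, and with limma-voom 2081, 7 lower and 3 higher. Of the 35739 genes in its fit, DESeq2 called 1016 higher and 517 lower. Of 16195 genes, limma-voom called 1175 higher and 906 lower. Both tools thus called more genes in general than the main fit. Without hMut replicates 6 and 9, 431 genes were called. Scaling on cardiomyocyte markers gave 7149 genes, 7065 of them higher, and 13 higher members. The atrial covariate gave 6 genes and 0 members in either direction, and the same without *Bmp10*, an alternative chosen after seeing the data, 346 genes and 0 lower members. *Bmp10*, a gene of that atrial list, was itself higher in hMut by 5.58 on the log2 scale. The other normalizations, the protein-coding set, the filter at 10 counts in 8 libraries and sex as a covariate kept all 4 calls. The cause of these shifts was not tested.

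The replicate numbers name different mice, and 1 of 8 pairs of same-numbered libraries had deviations correlated above 0.1 (−0.225 to 0.339). With the number as a replicate block 185 genes were called, against 415 on the same libraries without it, with 0 members higher and 0 lower. The log2 fold changes under the block were 1.5 for *Kcnj4* (adjusted p = 0.0668 by edgeR), −0.52 for *Kcnn2*, −0.45 for *Kcnj2* and −0.28 for *Kcnq1*.

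Signs turned as follows. By limma-voom *Kcnk1* was 0.083, and under the block *Kcna4* was 0.035. With cardiomyocyte scaling, which put the median of all genes at 0.27, *Kcna4* was 0.22, *Kcnj11* 0.065, *Kcnk1* 0.047, *Kcnk3* 0.10, *Kcnip2* 0.034, *Kcnma1* 0.015, *Kcnn1* 0.15, *Kcng2* 0.076 and *Abcc8* 0.21. With the atrial covariate *Kcnd2* was 0.074, *Kcnj12* 0.092, *Kcnj3* 0.11, *Kcnj5* 0.078, *Kcnj8* −0.042, *Kcnj11* 0.16, *Kcnk1* 0.33, *Kcnk3* 0.23, *Kcnn1* 0.10, *Kcng2* 0.32 and *Dpp6* −0.35, and without *Bmp10* *Kcnk1* was 0.16. Without hMut replicates 6 and 9 *Kcnk1* was 0.091, *Dpp6* −0.0027, the ratio of *Kcnip2* to *Kcnd2* −0.0075 and that of *Kcnj5* to *Kcnj3* −0.051. By medians *Kcna4* to *Kcnd2* was −0.037. Leaving out 1 library gave −0.19 to 0.040 for *Kcna4*, −0.092 to 0.24 for *Dpp6*, −0.41 to −0.24 for *Kcnd2* to *Kcnd3*, 0.28 to 0.41 for *Kcnj8* to *Kcnj11*, −0.036 to 0.35 for *Kcna4* to *Kcnd2* and −0.0037 to 0.13 for *Kcnj5* to *Kcnj3*.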

Other observations

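Sex, taken from counts of *Xist* and Y-linked genes, was entered as a term beside condition, chosen after seeing the data, with 5 female and 12 male hearts. These were 3 female and 5 male hearts in Ctrl and 2 female and 7 male hearts in hMut. None of the 56 members passed for sex in edgeR after adjustment over all genes, and 12 (21.4%) were at an unadjusted p below 0.05, against 9.68% of all genes. *Kcnj14*, Kir2.4, lay between 1.64 and 3.51 CPM in female hearts and between 3.39 and 6.70 in male hearts (log2 difference male minus female 0.80, adjusted p = 0.0582 by edgeR). *Kcnn3*, the third SK pore, lay between 2.09 and 2.68 CPM in female hearts and between 1.07 and 2.01 in male hearts, with no overlap (−0.63, adjusted p = 0.0963 by edgeR). It was picked after the values were seen, and the share of all genes that separate the sexes in this way is not given here. *Kcne1*, the KCNE subunit of the slow delayed rectifier, differed by −0.99 (adjusted p = 0.0547 by edgeR). Of the 4 members called for condition, *Kcnq1* differed with sex by −0.26 and *Kcnj4* by 0.80 (unadjusted p = 0.00587 and 0.0272 by edgeR). For *Kcnj2* and *Kcnn2* the difference was −0.25 and −0.18 (unadjusted p = 0.0815 and 0.260 by edgeR). The 4 calls for condition were kept with sex in the model, with *Kcnj4* at 1.64, *Kcnj2* at −0.47, *Kcnn2* at −0.54 and *Kcnq1* at −0.28.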
